A study of Gallus gallus with 24 samples.

Results

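At 11 wk, the oldest of 6 ages in the series, abdominal fat of fat line (FL) cockerels was set against that of lean line (LL) cockerels on 4 of the 24 two-colour spotted cDNA arrays. The 4 arrays were taken by their labelled age, and the other 20 arrays held birds of 1, 3, 5, 7 and 9 wk. Both lines are broiler chickens raised under one standard protocol, FL bred for a heavy abdominal fat pad and LL bred in the opposite direction. The labels name 1 line per direction, so an effect of selection and a chance difference between closed lines cannot be told apart. Each array carried RNA of 1 FL bird and 1 LL bird, 4 birds of each line in all, and FL was labelled with Alexa Fluor 647 on replicates 2 and 4 and with Alexa Fluor 555 on replicates 1 and 3.

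Abdominal fat of a bird stores triglyceride that is made mostly in the liver and delivered in very low density lipoprotein. The tissue holds adipocytes, their fibroblast-like precursors, blood vessels and immune cells, embedded in a matrix of collagens, laminins and fibronectin that is rebuilt as fat cells enlarge. In bulk tissue, fewer cells of a type and less RNA per cell cannot be told apart. A 2-colour ratio holds no level, so the labelled tissue could not be checked by the abundance of its defining markers.

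Values are the deposited log2 ratios, where 1 is a 2-fold difference. They were read as FL over LL, because the array titles name FL first. This reading is likely from the titles only and is not settled. With LL as the numerator all signs given here would be opposite, and with a ratio set by the dyes some would be, as described below. Spots of one gene were averaged, which gave 15027 features, 6428 of them with a gene symbol and 8599 unnamed. A feature was called at a Benjamini-Hochberg adjusted p under 0.05 in limma. The fit used all 24 arrays, with 1 coefficient for each age and 1 term for the dye orientation, and its standard errors (SE) share one estimate of the spread over all ages.

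The 4 arrays split by dye orientation, and this touches every result that follows. Over the 15027 features, replicates 1 and 3 correlated at 0.518 and replicates 2 and 4 at 0.474, whereas the 4 pairs of opposite orientation correlated between -0.552 and -0.224. Features share their arrays and dyes, so these correlations describe the arrays only. The mean of the 4 ratios had an SD of 0.107 over features, against 0.196 for the component that changes sign with the orientation. That component also varied between copies of one control clone, with an SD of 0.254 over 94 spots and 0.220 over 29 spots of the other control, against 0.209 over all spots. The mean of the 4 ratios varied between these copies too, with SDs of 0.106 and 0.0817, against 0.112 over all spots. The ratios were kept as deposited and the component was fitted as a dye effect. Turned by the dyes instead, the ratios gave 404 features called higher (2.69%) and 227 called lower (1.51%) in limma, 242 of them named. Which reading holds was not settled. Of 98 genes examined by name, 65 change sign between the readings, and the turned value is given below for some of them only.

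**Figure D1:**
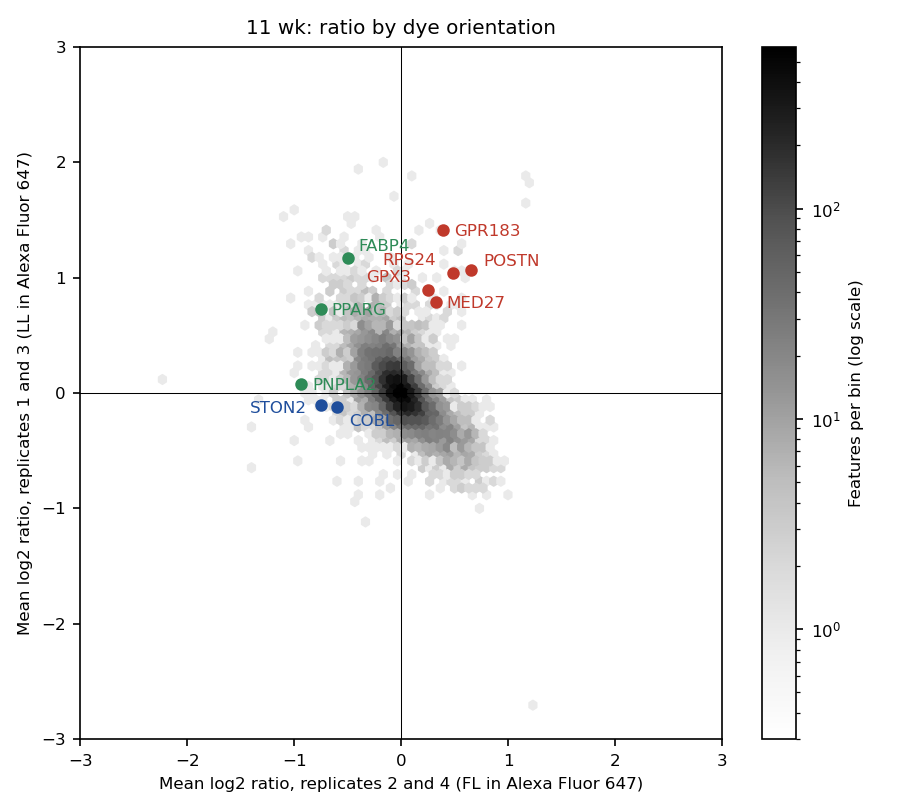
Mean log2 ratio of each feature at 11 wk on replicates 2 and 4 (horizontal axis, FL in Alexa Fluor 647) and on replicates 1 and 3 (vertical axis, LL in Alexa Fluor 647); grey shows features per bin on a log scale, and red, blue and green points are genes named in the text. The cloud runs from upper left to lower right, while GPR183, POSTN, RPS24, GPX3 and MED27 lie above 0 on both axes and STON2 and COBL lie below 0 on both.

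Read as deposited, some named genes had high ratios in FL fat at 11 wk. They included the genes of a receptor of immune cells, a matrix protein, a ribosomal protein and a secreted peroxidase. These genes were picked from these same data, and a line difference was not established for them. Higher still were 3 unnamed spots, at 1.52, 1.51 and 1.41. GPR183 averaged a log2 ratio of 0.91, POSTN 0.86, RPS24 0.76 and GPX3 0.57. No feature was called in the all-array fit. The calls in this reading came from fits of the 11 wk arrays alone or with array weights, where the median SE was smaller. Genes of fat synthesis and storage had ratios near 0 as a group in this reading.

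In the all-array limma fit 0 of 15027 features were called (0%). At an unadjusted p under 0.05, 140 features were higher (0.932%) and 60 were lower (0.399%), or 1.33% together. A share of 0.05 would be 751 features, but in simulated data only 1.23% of unchanged features passed in this fit. The observed share was thus near that of unchanged features. The residual SD of the 4 arrays of 11 wk ran from 0.136 to 0.202, and that of the 20 other arrays from 0.188 to 0.318. The median SE of a ratio at 11 wk was 0.108 in this fit, against 0.0653 in a fit of the 4 arrays alone and 0.0707 with array weights. The fit of the 4 arrays, with 2 residual degrees of freedom, called 4 features higher (0.0266%) and 0 lower. The gap between dye orientations is taken as a dye effect there, so the residual spread compares only arrays of one orientation. Counts of that fit at an unadjusted p under 0.05 were 475 higher (3.16%) and 266 lower (1.77%). Array weights called 6 features higher (0.0399%) and 1 lower (0.00665%), with 542 higher (3.61%) and 438 lower (2.91%) at an unadjusted p under 0.05. Replicate 1 carried much of the all-array count, since without it 35 features were higher and 33 lower at an unadjusted p under 0.05. It also had the widest ratios over all spots, with an SD of 0.340, against 0.209, 0.247 and 0.292 on replicates 2 to 4.

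GPR183 encodes a receptor for oxysterols that guides the movement of lymphocytes and dendritic cells. Its log2 ratios were 1.52, 0.44, 1.31 and 0.35 on replicates 1 to 4. All lay above 0, and the arrays with LL in Alexa Fluor 647 were the high pair. The mean was 0.91 with an SE of 0.264 in the all-array limma fit (p 0.00252, adjusted p 1.00) and an SE of 0.064 in the fit of the 4 arrays, where limma called it (adjusted p 0.0323). With 1 of the 4 arrays left out of that smaller fit, GPR183 stayed called only without replicate 3. Such a fit keeps a single array of 1 orientation, so its p rests on the gap between the 2 arrays of the other. In the all-array fit the mean was 0.86 without replicate 1, 0.90 without replicate 2, 0.94 without replicate 3 and 0.93 without replicate 4. At the other ages GPR183 averaged 0.47 and lay above 0 on 15 of 20 arrays, and the 11 wk ratio exceeded that mean by 0.44 (limma p 0.145). The single GPR183 spot is the only one that stands for the gene.

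POSTN, which encodes periostin, a matricellular protein of connective tissue, had ratios of 1.10, 1.05, 1.03 and 0.25 on replicates 1 to 4. Its first 3 arrays lay close together across both dye orientations and replicate 4 stood well below them. The mean was 0.86 (SE 0.265, limma p 0.00385). POSTN was called higher in the limma fit with array weights, at 0.94 (adjusted p 0.0444). The mean over the other ages was 0.42, with 16 of 20 arrays above 0.

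RPS24, a protein of the small ribosomal subunit, had ratios of 1.15, 1.05, 0.92 and -0.08. Replicate 4 was again the low array, and here it lay on the other side of 0. RPS24 averaged 0.76 (SE 0.25, limma p 0.00604) and was called with array weights at 0.87 (limma adjusted p 0.0444). GPX3, the glutathione peroxidase secreted into plasma, had ratios of 1.22, 0.35, 0.56 and 0.15, all above 0, with replicate 1 the highest. Its mean was 0.57 (SE 0.143, limma p 0.000619, the smallest of any named gene), and array weights called it at 0.55 (limma adjusted p 0.0444). Both GPX3 spots were above 0 on every array, at means of 0.815 and 0.331. These 4 were the only named genes called in either fit, and ratios turned by the dyes would put them at -0.51 for GPR183, -0.21 for POSTN, -0.27 for RPS24 and -0.32 for GPX3, none of them called.

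Over all features, 631 had all 4 ratios above 0 (4.2%) and 580 had all 4 below 0 (3.86%). Random signs on 4 arrays would put a share of 0.125 in these sets together, and the observed share was lower. Having 4 ratios of one sign is thus no evidence of a line difference by itself. The 12 named genes with the smallest p in each of these sets are described here, and none was called in the all-array fit. With ratios turned by the dyes, all 12 higher genes have means below 0 and 5 of the 12 lower genes have means above 0, again with 0 called in limma. Higher in FL beside GPR183, POSTN and GPX3 was MED27, a subunit of the Mediator complex of transcription, with ratios of 0.91, 0.40, 0.67 and 0.25. Its mean of 0.56 (SE 0.208, limma p 0.0138) came from 1 spot, at 1.11, while the other MED27 spot averaged 0.0049, and the turned mean was -0.23. ADD3, gamma-adducin of the membrane skeleton, had ratios of 0.91, 0.23, 0.28 and 0.14 (mean 0.39, SE 0.121, limma p 0.00423, turned mean -0.20). As for GPX3, all 4 values were positive and replicate 1 was the high array. Unlike GPX3, 1 of the 2 ADD3 spots was below 0 on replicates 2 and 4, with a mean of 0.158 against 0.618 for the other.

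FN1, which encodes fibronectin, had ratios of 0.48, 0.14, 0.42 and 0.03, and averaged 0.27 (SE 0.0824, limma p 0.00386). Its 6 spots were uneven, with means of 0.786, 0.526, 0.108, 0.096, 0.048 and 0.040, so a pair of spots carried the value. Its turned mean was -0.18. IRF9, a gene listed under the name of an interferon regulatory factor, stood at 0.46 with ratios of 0.95, 0.36, 0.02 and 0.52. HDAC2, a histone deacetylase, stood at 0.31, and NPM1, a nucleolar chaperone of ribosome assembly, at 0.29. For both, replicate 1 was the highest array (0.89 and 0.62), and without it HDAC2 stood at 0.15 and NPM1 at 0.15. IRF9 stood at 0.27 without replicate 1. CD69L stood at 0.37, or 0.19 without replicate 1, ID3, an inhibitor of basic helix-loop-helix factors, at 0.21, and UBL7 at 0.17. UBL7 was the most even of this set, between 0.06 and 0.23 on the 4 arrays.

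The lower set held smaller ratios. STON2, an adaptor of endocytosis, had ratios of -0.15, -0.70, -0.05 and -0.81 on replicates 1 to 4 (mean -0.43, SE 0.159, limma p 0.014). COBL, an actin nucleator, had -0.05, -0.54, -0.19 and -0.66 (mean -0.36, SE 0.135, limma p 0.0138). In both genes the arrays with FL in Alexa Fluor 647 were the low pair. WBP2, a WW domain binding protein that acts as a transcriptional coactivator, was more even in the average of its 2 spots, at -0.32, -0.20, -0.20 and -0.27 (mean -0.24, SE 0.09, limma p 0.0127). The WBP2 spots disagreed, with means of -0.083 and -0.406, and stood at 0.14 and -0.68 on replicate 4. ASAH1, the acid ceramidase of lysosomes, was even as well in its spot average, at -0.24, -0.22, -0.39 and -0.47, with a mean of -0.33. The ASAH1 spots had means of -0.250 and -0.409, and stood at 0.06 and -0.54 on replicate 1.

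CD59, an inhibitor of the membrane attack complex of complement, had ratios of -0.72, -0.14, -0.08 and -0.09 and a mean of -0.26. Replicate 1 set that mean, which was -0.13 without it, and 1 of the 2 CD59 spots stood at -1.27 on that array against -0.17 for the other. ROCK1, a protein kinase that acts on the actin cytoskeleton, lay between -0.32 and -0.11 on the 4 arrays, with a mean of -0.22. ACP6, a phosphatase of lysophosphatidic acid, averaged -0.29 and PLEKHO2 -0.26. AKTIP averaged -0.24, TMEM230 -0.23, LRP12 -0.22 and NRDC, the protease nardilysin, -0.17. Single arrays moved some of these means, since ROCK1 stood at -0.14 and TMEM230 at -0.12 without replicate 2, ACP6 at -0.17 without replicate 3 and NRDC at -0.11 without replicate 1. The 12 lower genes thus spanned -0.43 to -0.17, and the 12 higher ones 0.17 to 0.91.

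**Figure D2:**
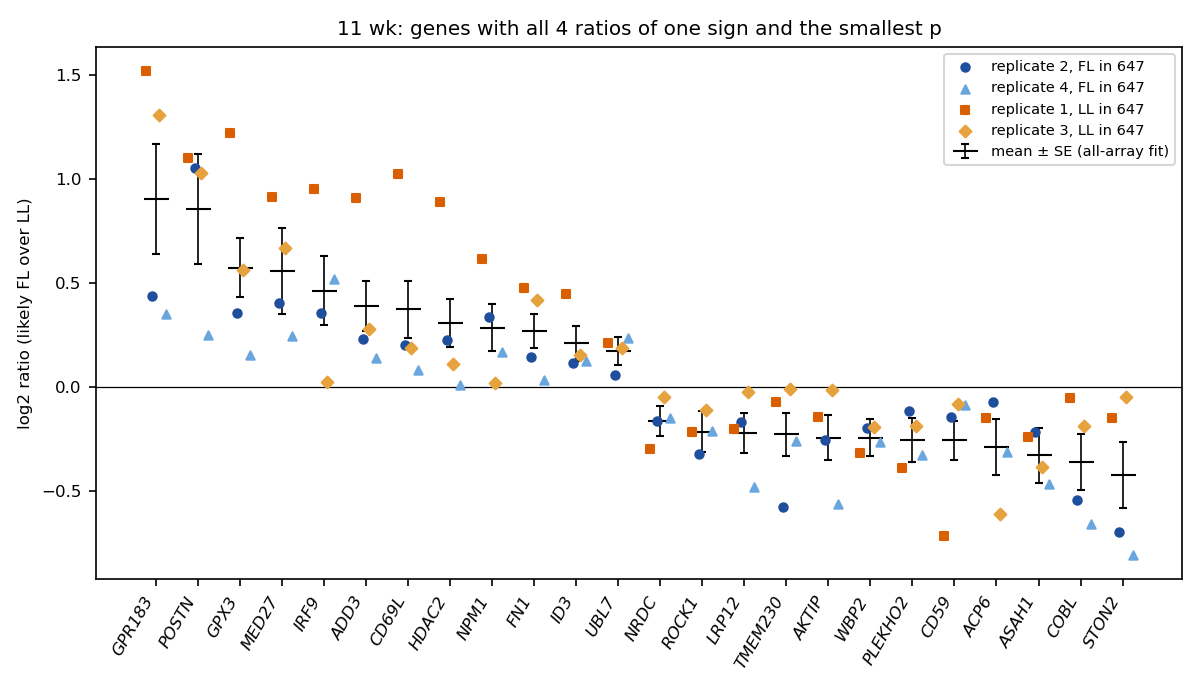
Log2 ratio at 11 wk (vertical axis, likely FL over LL) of the 12 higher and 12 lower named genes with all 4 ratios of one sign and the smallest p; symbols are the 4 arrays with FL in Alexa Fluor 647 (blue) or LL in Alexa Fluor 647 (orange), black bars the mean ± SE of the all-array limma fit. Replicate 1 is the highest array for every higher gene but UBL7, and POSTN is near 1 on every array but replicate 4.

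The extracellular matrix list was the second highest of 30 lists by its median. Ratios above 0 were found for 39 of the 54 genes measured, and the median log2 ratio was 0.07, against 8073 of 15027 features and a median of 0.0068 over all features. The median of the list was 0.17, -0.03, 0.11 and 0.05 on replicates 1 to 4, so 3 of 4 arrays were above 0. In the all-array limma fit 7 matrix genes were higher and 0 lower by the unadjusted threshold of 0.05, beside 0.932% and 0.399% of all features, and 0 were called. The 4-array fit put 11 higher and 1 lower, beside 3.16% and 1.77% of all features. The list's median turned to -0.08 with the ratios turned by the dyes and was 0.02 with the gene names as the annotation gives them. At 1, 3, 5, 7 and 9 wk the median of the list as deposited was 0.04, 0.08, -0.01, 0.07 and 0.07. Several matrix genes already led the mean over all ages, so the list is no independent evidence for 11 wk.

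Among matrix genes beside POSTN and FN1, LOXL1, an enzyme that crosslinks elastin and collagen, had ratios of 1.17, 0.27, 0.24 and 0.13 (mean 0.45, SE 0.184, limma p 0.0222). All were positive, and replicate 1 stood far above the other arrays. COL6A3, a chain of collagen VI, had 0.83, 0.39, 0.27 and 0.33 (mean 0.46, SE 0.276). Its all-array limma p was 0.113 and its 4-array p 0.00353, both unadjusted, and at the other ages it averaged 0.43. Another chain of the same collagen went the opposite way, since COL6A2 lay below 0 on all 4 arrays, between -0.39 and -0.06 (mean -0.20). COL18A1, a chain of the basement membrane collagen XVIII, was even at 0.30, 0.17, 0.26 and 0.09 (mean 0.20, limma p 0.0228).

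Of the basement membrane glycoproteins, NID2, which encodes nidogen 2, averaged 0.22 and was above 0 on all 4 arrays. Its spots were uneven, with means of 0.357, 0.382, 0.081 and 0.077. LAMB1, the laminin beta 1 chain, averaged 0.24, but its ratios of -0.08, 0.48, -0.14 and 0.71 lay above 0 only where FL carried Alexa Fluor 647. FBN1, the microfibril protein fibrillin 1, averaged 0.20 with a high value of 0.60 on replicate 1. COL5A1, a chain of collagen V named after its value was seen, had ratios of 1.02, 0.29, 0.12 and -0.05, with a mean of 0.35 (SE 0.191, limma p 0.0843). The fibrillar collagen genes COL1A1 and COL1A2 stood at 0.03 and -0.07, and COL3A1 at 0.19 with ratios between -0.52 and 0.95.

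The ribosomal protein list had the highest median of the 30. Of 44 measured genes 39 lay above 0, with a median of 0.13. The arrays differed widely, with medians of 0.52, 0.08, 0.24 and -0.18 on replicates 1 to 4, an SD of 0.296 that exceeded the list's median itself. Replicate 1 was the high array and replicate 4 lay below 0. In the all-array limma fit 4 genes were higher and 0 lower at an unadjusted p under 0.05, beside 0.932% and 0.399% of all features. In the 4-array fit 13 were higher and 1 lower, beside 3.16% and 1.77% of all features. The median was -0.19 with ratios turned by the dyes and 0.0085 with the names as given. At 1, 3, 5, 7 and 9 wk the median of the list as deposited was 0.08, 0.15, 0.10, -0.0063 and -0.06, so 11 wk was not the highest age.

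After RPS24, the highest ribosomal protein genes were RPL11 at 0.44, with ratios of 1.43, 0.19, 0.48 and -0.35, RPL13 at 0.38 and RPS6 at 0.36. RPL11 ran in the order of the list medians, highest on replicate 1 and below 0 on replicate 4. RPL13 was above 0 on all 4 arrays, from 0.09 to 0.90. RACK1, a scaffold protein bound to the small subunit, stood at 0.35 with a ratio of 1.04 on replicate 1 and -0.56 on replicate 4, and its turned mean was -0.48. RPS2 and RPL35A were the lowest, at -0.34 and -0.28, and RPL35A lay below 0 on all 4 arrays. Ribosomal protein genes have many processed copies in vertebrate genomes, and a cDNA spot can hybridise with more than its own transcript, so single members are uncertain.

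**Figure D3:**
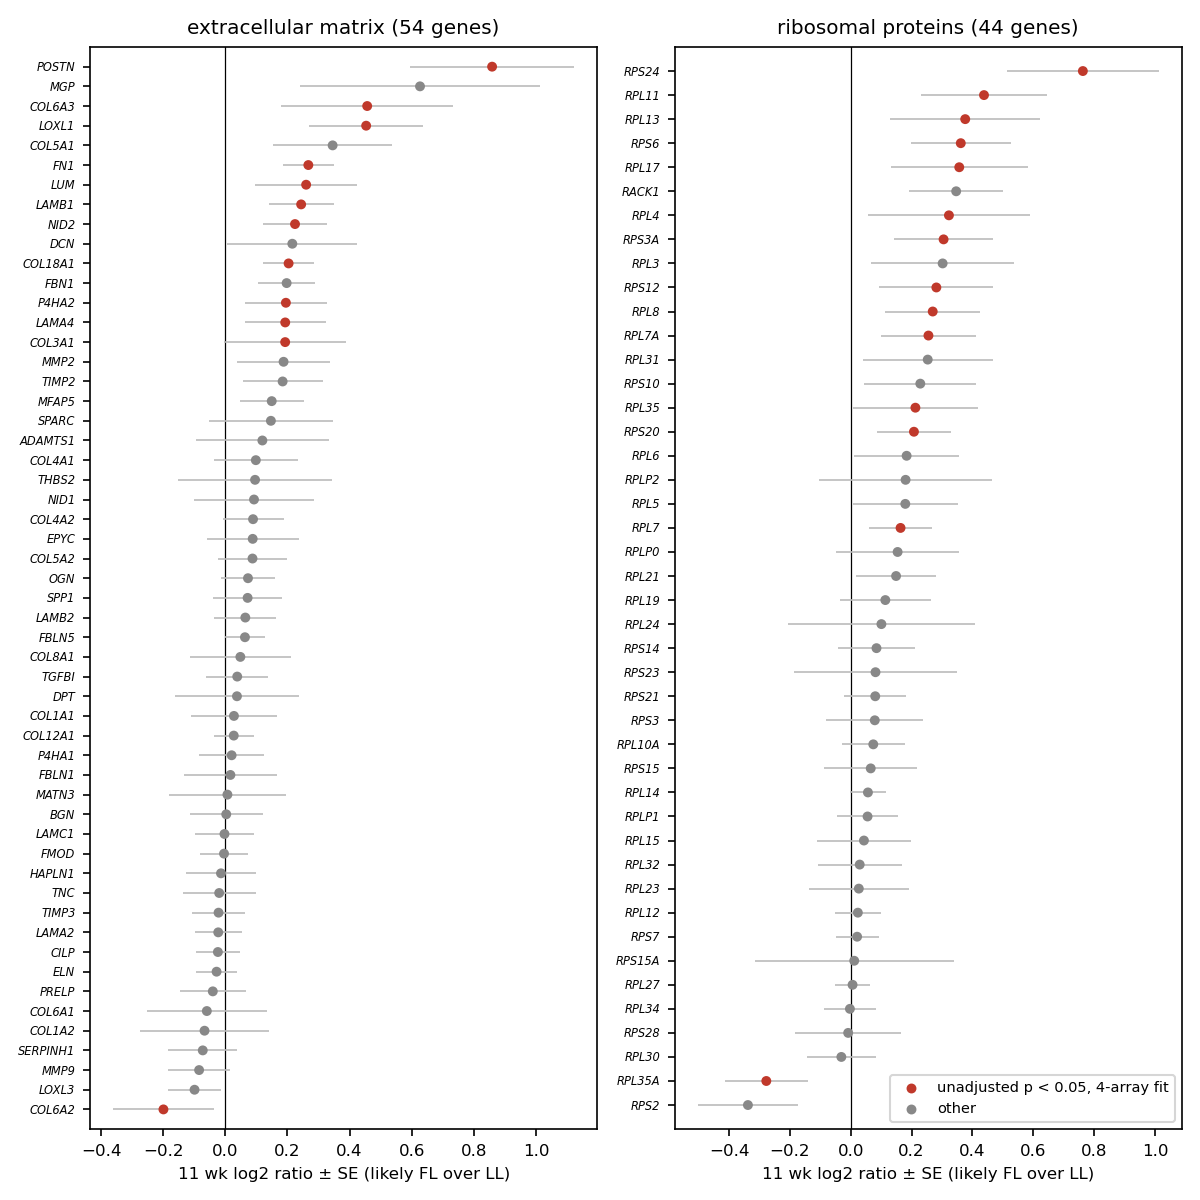
Log2 ratio at 11 wk ± SE of the all-array limma fit (horizontal axis, likely FL over LL) for the 54 measured extracellular matrix genes and the 44 measured ribosomal protein genes, sorted by ratio; red marks an unadjusted p under 0.05 in the fit of the 4 arrays alone. In both lists 39 genes lie above 0, and POSTN and RPS24 head them.

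Read as deposited, genes of fat metabolism stood near 0 as groups. The fatty acid synthesis list had 11 of 21 genes above 0 and a median of 0.0019. At an unadjusted p under 0.05 in the all-array limma fit it had 0 members, beside 1.33% of all features. Triglyceride uptake and storage had 9 of 20 above 0 (median -0.01), sterol synthesis 7 of 18 (median -0.04), fatty acid oxidation 14 of 23 (median 0.01) and lipolysis 6 of 10 (median 0.0033). Of these, only ACAA1, the peroxisomal thiolase of fatty acid oxidation, reached an unadjusted p under 0.05 in the all-array fit, at 0.19 (limma p 0.0407). Its ratios of 0.30, -0.16, 0.65 and -0.04 were above 0 only where LL carried Alexa Fluor 647. In the 4-array fit, triglyceride uptake and storage had 2 genes higher and 0 lower at that threshold. Fatty acid oxidation had 2 higher and 1 lower, lipolysis 0 and 1, and fatty acid synthesis and sterol synthesis 0 and 0. Of all features, 3.16% were higher and 1.77% lower there. In lists of 10 to 23 genes, counts this small say little about the members. With ratios turned by the dyes, list medians were -0.06 for fatty acid synthesis, -0.08 for triglyceride uptake and storage and -0.0086 for sterol synthesis. Those of fatty acid oxidation and lipolysis were -0.04 each, beside -0.01 over all features.

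FASN, the fatty acid synthase, had ratios of 0.26, -0.18, -0.20 and -0.29 on replicates 1 to 4 and a mean of -0.10 (SE 0.101, limma p 0.325). In the average of its 2 spots, replicate 1 was the only array above 0. The FASN spots disagreed, with means of -0.255 and 0.052, and the higher one lay above 0 on replicates 1, 2 and 4. ACACA, acetyl-CoA carboxylase, averaged -0.10 (SE 0.0892), SCD, the stearoyl-CoA desaturase, -0.15 (SE 0.162), and THRSP, a nuclear protein that tracks lipogenesis, -0.13 (SE 0.209). All 4 lipogenic genes had means within 2 SE of 0, and none of them had 4 ratios of one sign. Their turned means were -0.13 for FASN, -0.26 for ACACA, 0.09 for SCD and -0.36 for THRSP, none of them called in limma. An SE of 0.101 leaves room for a difference of that order in either direction, so a lack of difference is not shown.

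Some adipocyte genes had large ratios of opposite sign on different arrays. PPARG, the nuclear receptor that drives adipocyte differentiation, had ratios of 1.02, -0.39, 0.44 and -1.10 on replicates 1 to 4, with a mean of -0.01 (SE 0.241). It was above 0 on both arrays with LL in Alexa Fluor 647 and below 0 on both others, and with ratios turned by the dyes limma called it at -0.74 (adjusted p 0.0154). FABP4, the fatty acid binding protein of adipocytes, had 0.90, 0.06, 1.45 and -1.05 (mean 0.34, SE 0.369, turned mean -0.83), with both spots ordered alike. The single spot of ADIPOQ, which encodes adiponectin, stayed between -0.10 and 0.31 (mean 0.06, SE 0.116).

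In lipolysis, PNPLA2, the adipose triglyceride lipase, had ratios of 0.04, -1.12, 0.11 and -0.74 (mean -0.43, SE 0.292). It was near 0 on the arrays with LL in Alexa Fluor 647 and low on both others. Its all-array limma p was 0.158 and its 4-array p 0.00169, both unadjusted. The turned mean of PNPLA2 was -0.50 and was not called. G0S2, an inhibitor of that lipase, had 0.74, -0.40, -0.07 and -1.48 (mean -0.30, SE 0.329). The G0S2 values spread over both sides of 0, with replicate 4 the lowest. APOA1, the main protein of high density lipoprotein, had 0.81, 0.42, 0.43 and 0.16 (mean 0.45, SE 0.251, limma p 0.0855), above 0 on all 4 arrays, and averaged 0.11 at the other ages.

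Other metabolic groups gave single members at an unadjusted p under 0.05 in the all-array limma fit, beside 1.33% of all features. GYS2, a glycogen synthase, stood at 0.22 with ratios of 0.71, -0.10, 0.42 and -0.13, and was called in the opposite direction, at -0.34, with ratios turned by the dyes (limma adjusted p 0.0435). RPS6KA1, a ribosomal S6 kinase of growth factor signalling, stood at 0.21 and was highest on replicate 1 (0.62). XBP1, a transcription factor of the endoplasmic reticulum stress response, stood at -0.24 with ratios of -0.46, -0.50, 0.11 and -0.12. The XBP1 spots disagreed, with means of -0.425 and -0.061, and stood at -1.16 and 0.23 on replicate 1. Without replicate 1 the XBP1 mean was -0.11. HSPD1, the mitochondrial chaperonin, did not reach that threshold (limma p 0.0745), with ratios of 0.91, -0.10, 0.83 and -0.20 (mean 0.36, turned mean -0.51). Its spots disagreed, at means of -0.04 and 0.76. Mitochondrial respiration had 22 of 44 genes above 0 and a median of 0.0054.

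Markers of other cell types were measured beside these genes. Smooth muscle and pericyte markers had 18 of 24 genes above 0 and a median of 0.03, with array medians of 0.13, 0.04, 0.10 and -0.11. RGS5, a pericyte regulator of G protein signalling, had ratios of 1.19, 0.13, 0.61 and -0.37 (mean 0.39, SE 0.14, limma p 0.0114, turned mean -0.51). Without replicate 1 the RGS5 mean was 0.20. TPM2, a tropomyosin, averaged 0.17 over 6 spots (limma p 0.0434). In the spot averages of both genes replicate 4 was the only array below 0. The TPM2 spots disagreed, with means from -0.06 to 0.41 and ratios from -0.70 to 1.00 on replicate 4.

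Macrophage markers had 18 of 27 genes above 0 and a median of 0.02, which was -0.03 without replicate 1. On replicate 1 the list's median was 0.19, against -0.05 to -0.01 on the others. IL1B, an inflammatory cytokine, had ratios of 1.10, -0.06, 0.31 and -0.25 and TLR2A, a receptor for bacterial lipoproteins, 1.11, -0.13, 0.08 and 0.02. Both were highest on replicate 1, the array on which GPR183 and GPX3 also had their highest ratios. The IL1B spots were uneven, with means of 0.482 and 0.071. On the 3 other arrays the macrophage median was near 0 and GPR183 stood between 0.35 and 1.31. The part of macrophage content in the GPR183 ratio was not tested. Of 64 listed lymphocyte markers only 13 were measured, 8 of them above 0, with array medians between -0.02 and 0.03. GPR183 is itself on that list and is its highest member, so the list is no separate check of its ratio.

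Hepatocyte markers had 25 of 45 genes above 0 at 11 wk (median 0.01), and skeletal muscle markers 21 of 39 (median 0.02), with array medians between -0.02 and 0.02. Endothelial markers had 22 of 31 genes above 0 (median 0.02), led by MMRN2, an endothelial matrix protein, at 0.31 with ratios of 0.79, -0.06, 0.23 and 0.29. Interferon response genes had 11 of 22 above 0 (median 0.0044), and IRF1, a transcription factor induced by interferon, stood at 0.28, above 0 on all 4 arrays. The 2 IRF1 spots disagreed, at means of 0.04 and 0.53, and the lower one was below 0 on replicates 1 and 3. Cell cycle genes had 27 of 47 above 0 (median 0.0035). No member of these lists other than IRF1 reached an unadjusted p under 0.05 in the all-array limma fit, beside 1.33% of all features.

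**Figure D4:**
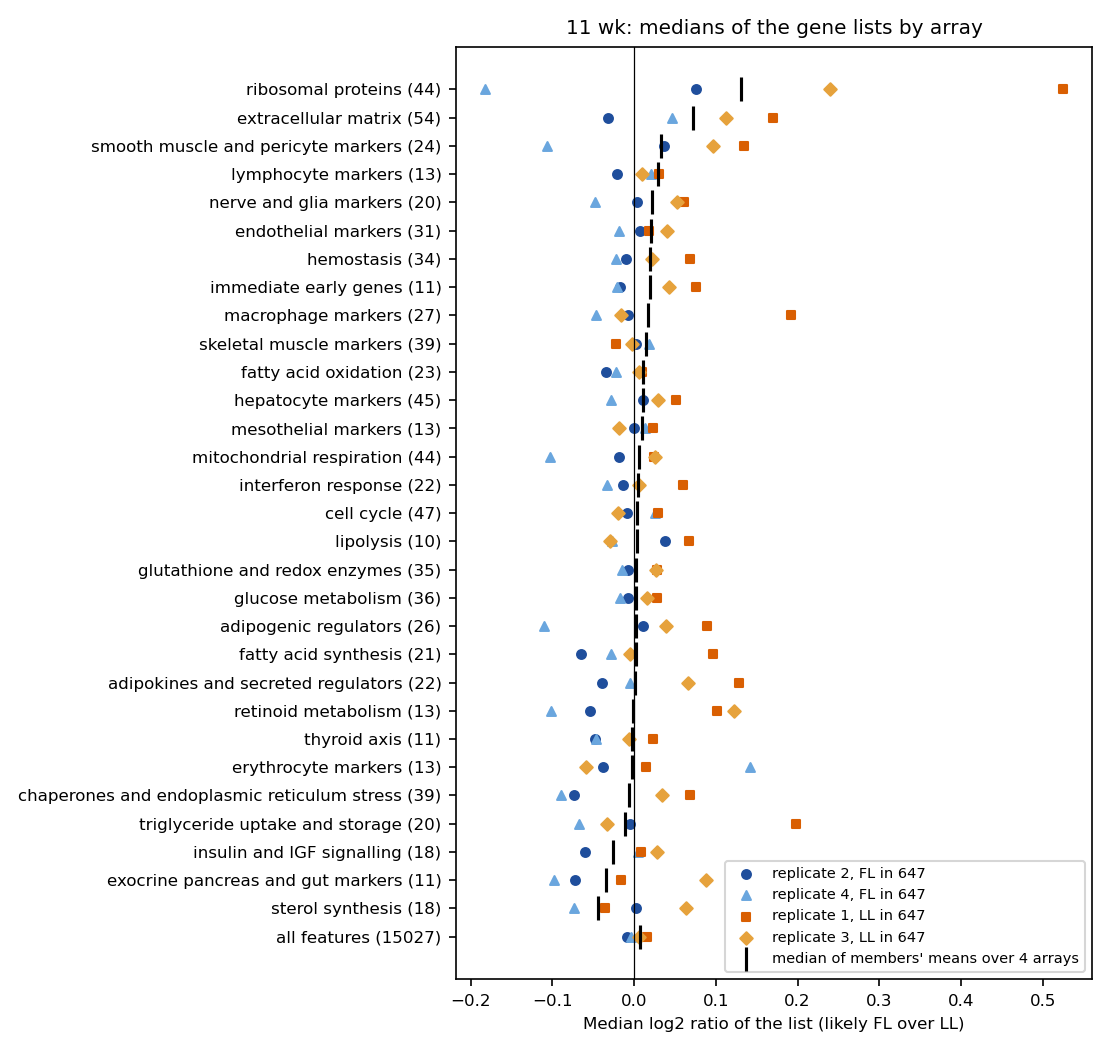
Median log2 ratio at 11 wk (horizontal axis, likely FL over LL) of 30 gene lists and of all features, with the number of measured genes in brackets; symbols are the 4 arrays with FL in Alexa Fluor 647 (blue) or LL in Alexa Fluor 647 (orange), and black bars the median of the members' means. Ribosomal proteins spread from -0.18 to 0.52 between arrays, while the median of all features stays within 0.02 of 0.

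The comparison of 11 wk with the mean of the 5 other ages asked whether the line difference was larger or smaller at the oldest age. In limma 0 features were called, 91 were higher (0.606%) and 56 lower (0.373%) at 11 wk at an unadjusted p under 0.05. GPX3 stood at 0.57 at 11 wk, against 0.22 over the other ages (limma p 0.0357). MED27 stood at 0.56 at 11 wk, against 0.08 over the other ages (limma p 0.0494). For GPR183, POSTN and RPS24 the difference between 11 wk and the other ages was 0.44, 0.44 and 0.37, with unadjusted limma p of 0.145, 0.148 and 0.187.

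The named genes with the smallest p in this comparison had modest ratios. RBBP6, a ubiquitin ligase that binds the retinoblastoma protein, averaged 0.16 at 11 wk and -0.25 at the other ages (difference 0.41, limma p 0.00725). SDK1, a cell adhesion molecule, averaged 0.16 at 11 wk and -0.09 at the other ages (limma p 0.00875), and was above 0 on all 4 arrays of 11 wk and on 6 of the 20 others. DND1, an RNA-binding protein of germ cells, differed by 0.30, RBBP4, a chromatin subunit, by 0.27 and TMEM37 by 0.26. On the lower side, SLCO2A1, a prostaglandin transporter, differed by -0.24, ZCCHC11, a terminal uridylyltransferase, by -0.31, ZRSR2, a splicing factor of minor introns, by -0.32, CD59 by -0.27 and ROCK1 by -0.28. Leaving out 1 array moved most of these 11 wk means. Without replicate 1 they were 0.08 for RBBP6, 0.10 for SDK1, 0.05 for DND1, 0.10 for RBBP4 and 0.08 for TMEM37, against 0.16, 0.16, 0.16, 0.18 and 0.18 with it. ZRSR2 stood at -0.32 at 11 wk and at -0.08 without replicate 2, whose ratio was -1.12. SLCO2A1 stood at -0.23 and at -0.10 without replicate 3, and only 1 of its 3 spots was low, at -0.81 against 0.02 and 0.09. Of these 10, CD59 and ROCK1 also belong to the lower set described above, and TMEM37 was called in the opposite direction at 11 wk with ratios turned by the dyes, at -0.33.

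RGS5 differed by 0.40 (limma p 0.0157), since it averaged -0.02 over the other ages. MGST1, a microsomal glutathione transferase, had ratios of -0.62, -0.15, 0.17 and -0.92 at 11 wk (mean -0.38) and averaged 0.12 at the other ages, a difference of -0.50 (limma p 0.0206). Its age means were 0.58, 0.26, 0.06, -0.02, -0.26 and -0.38 from 1 to 11 wk, each lower than the one before. The last step depended on single arrays of 1 spot. Without replicates 1, 2, 3 or 4 the 11 wk mean was -0.23, -0.53, -0.51 or -0.25. At 9 wk the MGST1 ratios were 0.46, -0.89, 0.44 and -1.07 on replicates 1 to 4, split by dye orientation. GPR183 had age means of 0.31, 1.02, -0.10, 0.50, 0.62 and 0.91 from 1 to 11 wk, and POSTN 0.59, 0.51, 0.05, 0.25, 0.71 and 0.86. COL6A3 and COL5A1 were nearly the same at 11 wk and at the other ages, with differences of 0.03 each.

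**Figure D5:**
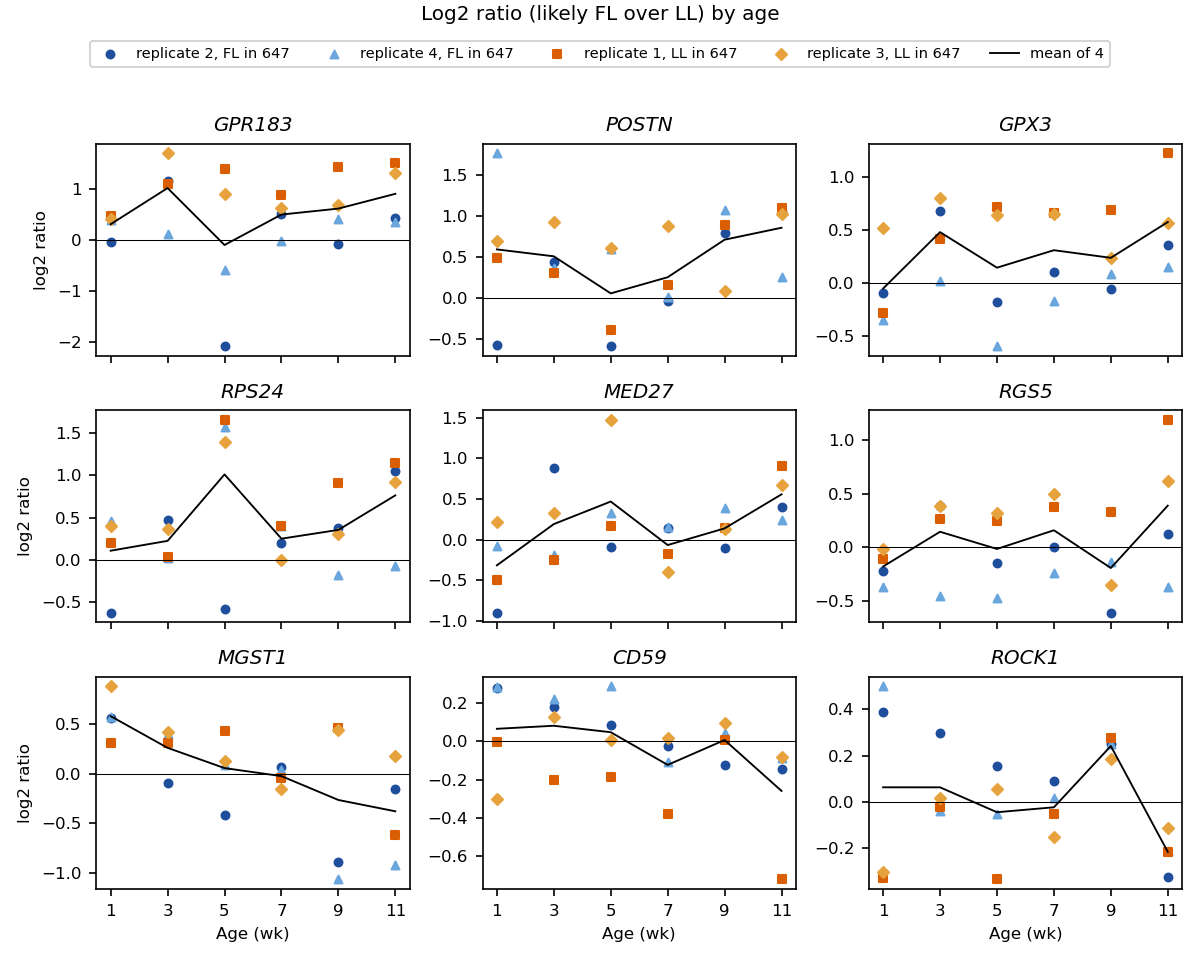
Log2 ratio (vertical axis, likely FL over LL) by age in weeks for 9 genes; symbols are single arrays with FL in Alexa Fluor 647 (blue) or LL in Alexa Fluor 647 (orange), and the line joins the means of 4 arrays. The 11 wk mean is the highest of the 6 for POSTN, GPX3, MED27 and RGS5 and the lowest for MGST1, CD59 and ROCK1.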

How the data were processed

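The authors deposited a log2 ratio for each of 19200 spots on each array, made with limma 3.4.5 in R 2.11.1 per the submitters' processing notes. The background correction, the normalization, the numerator line and the log base are not given in the sources used here. Base 2, the default of limma, was assumed. Intensities of the scanner were not analysed here, and the precision is limited by the number of arrays.

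Spots were named by the platform's gene symbols after row and column were exchanged within each print block. At 11 wk the rank correlation over 5078 pairs of spots of one gene was 0.0394 to 0.0912 with exchanged names, against -0.0026 to 0.0335 with the names as given. On replicate 2 the namings hardly differed, at 0.0394 and 0.0335. Spots of one gene thus agreed weakly under either naming, and the gene names stay uncertain. Of 10601 named spots 10455 (98.6%) had a gene identifier in the RefSeq gene table, and 0 symbols changed. The 123 spots of 2 control clones were left out.

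The model was fitted with limma 3.58.1 under R 4.3.3 over 24 arrays, with 17 residual degrees of freedom, and adjusted over all 15027 features. The procedure was tested on simulated data with 50 features changed at each set size. Of unchanged features, 1.23% had an unadjusted limma p under 0.05 in the all-array fit. That share was 4.91% in the 4-array fit and 5.11% with array weights. False calls numbered 0, 5 and 6 in these fits. Of the features changed by a log2 ratio of 0.25, these fits called 8%, 0% and 40%. At a change of 0.5 they called 60%, 36% and 76%. Each replicate number stands for different birds, per the labels, and the spread behind a p-value thus holds birds and arrays alike. Ratios of 11 wk arrays and of same-numbered arrays of other ages correlated at a mean of -0.058 after group means were removed, so the numbers were not taken as pairs. Named genes were, in addition to index genes of fat metabolism and leaders of the mean over ages, the 12 in each direction with 4 ratios of one sign and the smallest p, 2 per list, 5 in each direction by the contrast with other ages, and those called in the 4-array fit. COL5A1, NID2 and the further list members given with values were chosen after their values were seen. The members and the 30 lists were chosen with earlier results of these data known.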

Additional observations from a re-analysis of the deposited data

Results flagged for a closer look

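Among 128 items tested, 98 genes and 30 list medians, 6 had 1 array of the 4 so far from its neighbours that the gap exceeded Dixon's critical share of the whole range. Chance gives about 1 in 20 items, so 6 of 128 is no more than chance would give. In 5 of the 6 the distant array was replicate 1, and in the other it was replicate 4.

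CD59 stood at -0.72 on replicate 1, against -0.14 to -0.08 on the others. CD69L stood at 1.02 on replicate 1, against 0.08 to 0.20. ID3 stood at 0.45 on replicate 1, against 0.11 to 0.15. TLR2A stood at 1.11 on replicate 1, against -0.13 to 0.08. The macrophage list's median was 0.19 on replicate 1, against -0.05 to -0.01. POSTN stood at 0.25 on replicate 4, against 1.03 to 1.10.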

How the results depend on the processing

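The line effect at 11 wk had 0 calls in each direction in the all-array limma fit and also with any 1 of 24 arrays left out, where counts at an unadjusted p under 0.05 ran from 35 to 189 higher and from 33 to 112 lower, and for 11 wk against the other ages from 32 to 127 and from 35 to 77. Without replicate 1 of 11 wk they were 35 and 33, against 140 and 60, and 32 and 35 against 91 and 56. Leaving 1 array out of the 4-array fit, chosen after seeing the data, gave 0 to 35 called higher and 0 to 11 lower, and 292 to 983 higher and 254 to 505 lower unadjusted. The 35 and 11 arose without replicate 3. Without replicate 2 none was called (380 and 287 unadjusted), and without replicate 4 there was 1 in each direction (389 and 367).

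The 4-array fit gave 4 called, 475 and 266, or 6, 549 and 307 with print blocks centred. Array weights gave 6 and 1 called, 542 and 438, and 339 and 336 for the age contrast. Without a dye term counts were 74 and 38, and 41 and 37. Turned by the dyes they were 404 and 227 called, 1263 and 1320, and 586 and 319. With arrays scaled they were 230 and 157, and 143 and 112. Print blocks centred over 24 arrays gave 103 lower, and 1 dye term per age 212 and 130, and 111 lower in the age contrast.

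With a replicate block counts were 139 and 60, and 87 and 52 for the age contrast, and no call changed. Turned by the dyes, GYS2 stood at -0.34, IL1B at -0.43, TMEM37 at -0.33 and TUBB3 at -0.40, each called against its sign as deposited. That reading turned the sign of 65 of 98 genes and 20 of 30 lists, and names as given 46 and 12. The cause of these changes was not tested.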

Other observations

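The features with the largest ratios called in the 4-array limma fit carried no gene symbol. They were 3 spots in print blocks 47, 46 and 44. The spot in block 47 had log2 ratios of 1.82, 1.25, 1.87 and 1.11 on replicates 1 to 4 (mean 1.51, limma adjusted p 0.004). The spot in block 46 had 1.41, 1.24, 1.91 and 1.10 (mean 1.41, limma adjusted p 0.0315), and the spot in block 44 had 2.16, 1.10, 1.58 and 1.22 (mean 1.52, limma adjusted p 0.0315).

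All 3 exceeded 1 on every array of 11 wk in both dye orientations. Their means at 1, 3, 5, 7 and 9 wk also ran alike, at -1.26, 0.47, 1.25, 0.21 and 0.30 for the spot in block 47, at -1.24, 0.55, 1.48, 0.10 and 0.42 in block 46, and at -0.70, 0.40, 1.12, 0.19 and 0.04 in block 44. In the all-array limma fit none of them was called, with unadjusted p between 0.0131 and 0.0605. Whether the 3 spots hold the same transcript was not tested.

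Array weights called 3 other unnamed spots. The one that was lower, in block 43, had ratios of -1.28, -0.58, -0.52 and -0.21 on replicates 1 to 4 and averaged -0.06 at the other ages (limma p of the difference 0.00214, unadjusted).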
